A study of Mus musculus with 9 samples.

Results

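Glutathione and Nrf2-linked antioxidant genes were followed in whole mouse corneas of 3 genotypes. The 10 genes are the glutathione S-transferase genes Gsta4, Gsta3, Gstm1 and Gsto1, the quinone reductase gene Nqo1, the glutathione synthesis genes Gclc and Gclm, the thioredoxin-linked genes Txnrd1 and Srxn1, and the heme oxygenase gene Hmox1. Each was taken as the array row (probe set) whose annotation names that symbol alone, and the brightest such row where there were several. All 10 had exactly 1 row, out of 22180 genes measured, and no filter on intensity was applied.

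Mutant mice had the corn1 allele of the gene Dstn, whose product destrin depolymerises actin. Rescued mice had this allele too, with Srf, the gene for serum response factor, ablated in the epithelium of the cornea, and the remaining mice were labelled wild type (WT). Every animal had the same mixed background (Swiss Black, 129, FVB, A.BY and C57BL6/J), received intraperitoneal doxycycline from postnatal day 28 to day 58, and was collected at day 58. Each group had 3 biological replicates, each a pool of 10 corneas from 5 mice. The transgenes that carried out the Srf ablation are not named in the sources used here.

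Glutathione is the most abundant small thiol of cells. The glutamate-cysteine ligase, made of a catalytic subunit (Gclc) and a modifier subunit (Gclm), carries out the limiting step of its synthesis, and glutathione S-transferases join it to reactive compounds such as the aldehydes formed from oxidised lipids. Nrf2, encoded by Nfe2l2, is a transcription factor held at low protein level by Keap1 and stabilised when oxidants or electrophiles modify Keap1. With small Maf partners it binds antioxidant response elements near genes such as Nqo1, Gclm, Txnrd1, Srxn1 and Hmox1. The cornea is exposed to light and oxygen, which form oxidised lipids and proteins.

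Values are the deposited log2 intensities. Intensities of different probe sets do not rank genes against each other. The 9 arrays had medians between 6.75 and 6.78, and Pearson correlations over all rows were 0.99 to 0.993 within groups and 0.971 to 0.988 between groups. Dstn was at 12.55 to 12.59 in the WT pools and at 5.54 to 5.80 in the 6 pools labelled mutant or rescued. Srf was at 10.55 to 10.77 in mutant, 8.45 to 9.45 in rescued and 8.98 to 9.23 in WT pools, so that in whole cornea the rescued pools were not uniformly below WT. The epithelial keratin gene Krt12 was at 13.49 or above and the corneal aldehyde dehydrogenase gene Aldh3a1 at 13.37 or above in every pool. In the mean of 3 Y-linked genes WT replicates 1 and 3 were at 5.34 and 5.15, below every other pool. WT replicate 2 was at 9.77, and the mutant and rescued pools lay between 7.16 and 9.77. The Y-linked level was thus not balanced between WT and the other groups.

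The promoters are shown because genes that moved together, and genes that moved in opposite directions, can be set beside each other for the core of the antioxidant response element, searched here as TGACNNNGC on both strands. RefSeq promoter windows of GRCm38.p6, from 250 bases before to 50 bases after a start site, were given for 7 of the 10 genes (10 windows). Gsta4, Gclc and Hmox1 had no window and were not searched. The core stood in 1 window each of 4 genes, Gclm, Srxn1, Txnrd1 and Gsta3, and it stands in 12.4% of all 32851 windows. These are the 4 windows, written 5′ to 3′ on the strand of the gene with the core in capitals. It reads forward in Gsta3 and on the opposite strand in Gclm, Srxn1 and Txnrd1.
Gclm: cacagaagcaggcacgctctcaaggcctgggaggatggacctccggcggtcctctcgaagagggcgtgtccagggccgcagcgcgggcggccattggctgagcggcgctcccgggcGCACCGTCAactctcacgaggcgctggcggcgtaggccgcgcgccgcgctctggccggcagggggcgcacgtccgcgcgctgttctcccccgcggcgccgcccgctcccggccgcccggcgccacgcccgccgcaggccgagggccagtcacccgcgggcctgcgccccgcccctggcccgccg
Srxn1: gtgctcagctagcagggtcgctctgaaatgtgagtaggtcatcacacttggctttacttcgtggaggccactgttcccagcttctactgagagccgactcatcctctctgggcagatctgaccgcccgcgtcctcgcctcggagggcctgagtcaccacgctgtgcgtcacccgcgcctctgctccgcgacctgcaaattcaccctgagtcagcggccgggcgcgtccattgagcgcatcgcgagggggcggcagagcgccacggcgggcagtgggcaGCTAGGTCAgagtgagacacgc
Txnrd1: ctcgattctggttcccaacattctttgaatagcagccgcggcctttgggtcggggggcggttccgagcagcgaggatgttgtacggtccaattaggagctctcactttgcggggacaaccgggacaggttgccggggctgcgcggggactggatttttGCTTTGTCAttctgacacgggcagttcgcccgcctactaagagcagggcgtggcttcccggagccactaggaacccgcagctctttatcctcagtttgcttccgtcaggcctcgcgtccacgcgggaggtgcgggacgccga
Gsta3: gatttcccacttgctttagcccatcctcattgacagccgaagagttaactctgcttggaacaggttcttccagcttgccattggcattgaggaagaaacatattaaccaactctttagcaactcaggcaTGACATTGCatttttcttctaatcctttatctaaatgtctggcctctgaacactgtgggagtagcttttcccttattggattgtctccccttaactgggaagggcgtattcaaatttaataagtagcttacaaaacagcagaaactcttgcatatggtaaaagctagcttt
The windows are chr3:122245307-122245606 for Gclm, chr2:152105274-152105573 for Srxn1, chr10:82858956-82859255 for Txnrd1 and chr1:21240335-21240634 for Gsta3, all on the plus strand. The core began 134 bases before the start site in Gclm, 92 before it in this window of Txnrd1 and 121 before it in Gsta3, and in Srxn1 its first base was base 29 of the gene. The Srxn1 window also held the AP-1 letters TGANTCA at 102 and at 45 bases before the start, each as TGAGTCA, a motif found in 7.81% of windows, and none of these overlaps the capitals. The match at 45 bases is followed by GC (TGAGTCAGC). The search for the antioxidant core did not allow G in place of C after TGA, so this stretch was not counted as a core. The CArG box, a motif that serum response factor binds, was found in the Gsto1 window alone among the 7 genes with a window (CCTTTAAAGG, 32 bases before the start on chromosome 19) and in 1.63% of all windows. The windows of Gstm1, Gsto1 and Nqo1 did not contain the antioxidant core letters, and a match or its absence describes these letters only.

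Mutant and WT corneas were compared for the loss of destrin. The transferases Gsta4, Gsta3 and Gstm1 and the quinone reductase Nqo1 were lower in the mutant by 0.29 to 0.78 on the log2 scale, and Gclm, Txnrd1, Srxn1 and Hmox1 were higher by 0.53 to 1.43. Gsto1 and Gclc did not pass the test. In all, 8 of 10 genes passed an adjusted p of 0.05 (limma, adjusted over all genes), 4 in each direction, beside 31.6% of all genes in this comparison. Of all genes 15.1% were called higher and 16.5% lower in the mutant. In rescued against mutant corneas 5 of 10 passed, beside 13.3% of all genes. Gsta4, Gsta3 and Nqo1 were higher in the rescued corneas (6.46% of all genes were) and Gclm and Hmox1 were lower (6.88%). In rescued against WT corneas 4 of 10 passed, beside 13.7% of all genes, and Gclm, Txnrd1, Srxn1 and Hmox1 were higher (6.28%). None was lower there by limma, and 1 was at an unadjusted p under 0.05. Without rescued replicate 2 none of these 4 passed (adjusted p = 0.0524 to 0.106), and Gstm1 was called lower. The first and second comparisons share the mutant arrays, and the third shares arrays with both. The ranges of mutant and WT pools did not overlap for 10 of 10 genes, beside 44.7% of all genes, those of rescued and mutant pools for 7 (32.2%) and those of rescued and WT pools for 5 (31.6%). In whole tissue, fewer cells of a type and less RNA per cell cannot be told apart. The median absolute log2 difference of the 10 genes was 0.49, 0.27 and 0.25 in the 3 comparisons, and that of all genes was 0.15, 0.11 and 0.11.

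**Figure D1:**
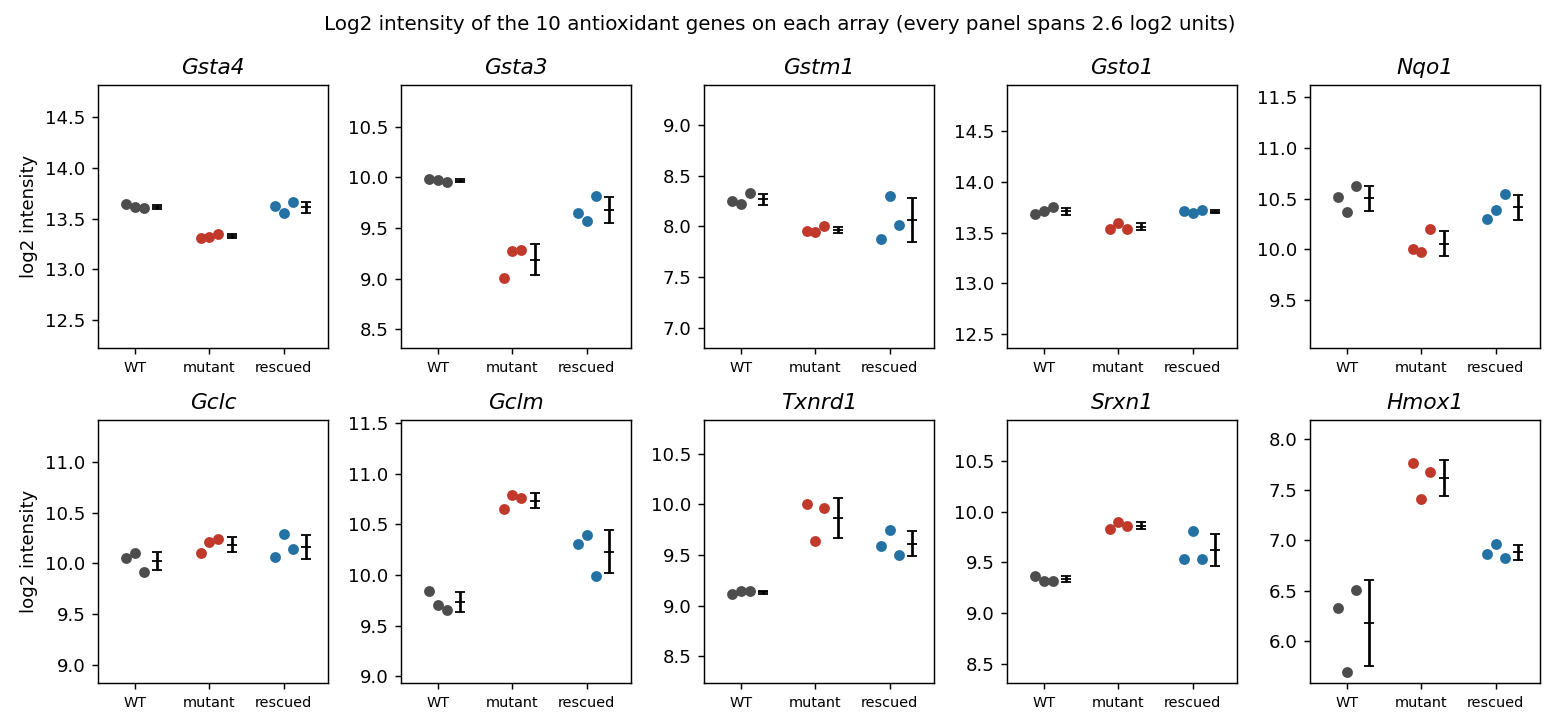
Log2 intensity (vertical axis) of each of the 10 genes in the 3 WT, 3 mutant and 3 rescued pools; each point is an array, and the black bar is the mean with its SD. The mutant points lie below the WT points for the 4 transferases and Nqo1 and above them for Gclm, Txnrd1, Srxn1 and Hmox1. For Gclc the lowest mutant point and the highest WT point are level at 10.10 as rounded, and the other mutant points lie above.

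Gsta4 encodes a transferase that prefers hydroxynonenal and related products of lipid oxidation. Its log2 intensities were 13.64, 13.61 and 13.60 in the WT pools, 13.31, 13.32 and 13.35 in the mutant pools, and 13.62, 13.55 and 13.66 in the rescued pools. The mutant pools lay below all others, and the rescued and WT pools overlapped. Gsta4 fell by 0.29 in the mutant (SE 0.06, adjusted p = 0.00322), a 1.22-fold decrease, and was 1.22-fold higher in the rescued than in the mutant (log2 difference 0.28, SE 0.06, adjusted p = 0.01). The rescued minus WT difference was −0.01 with a 95% interval from −0.13 to 0.12.

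Gsta3 encodes another alpha-class transferase. It was at 9.98, 9.97 and 9.95 in WT, at 9.01, 9.27 and 9.28 in mutant, and at 9.65, 9.57 and 9.82 in rescued pools. The 3 groups did not overlap, and the rescued pools lay between the others. Gsta3 was 1.72-fold lower in the mutant than in WT (difference −0.78, SE 0.09, adjusted p = 0.000138) and 1.41-fold higher in the rescued than in the mutant (0.49, SE 0.09, adjusted p = 0.00661). Against WT the rescued corneas had a difference of −0.29 (95% interval −0.49 to −0.08) that missed the threshold (adjusted p = 0.0694), and that passed without mutant replicate 1 (adjusted p = 0.0406) or without rescued replicate 3 (adjusted p = 0.0382). Probe sets of transferase genes can share signal between close family members, so their identities are less certain than those of single-copy genes.

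Gstm1, a mu-class transferase gene, was at 8.25, 8.22 and 8.33 in WT, 7.95, 7.94 and 8.0 in mutant and 7.87, 8.30 and 8.01 in rescued pools. Mutant and WT did not overlap, and the rescued pools spread over both. The 1.23-fold decrease in the mutant (log2 difference −0.30, SE 0.10) was just inside the threshold (adjusted p = 0.0449). It missed it without any 1 of mutant replicates 1 to 3, WT replicates 1 to 3 or rescued replicate 3 (adjusted p = 0.0561 to 0.125), and after quantile normalisation (adjusted p = 0.0876). The call was also lost with centred array medians, the replicate number as a block or a covariate of Y-linked expression (adjusted p up to 0.0907). Rescued against WT differed by −0.21 (95% interval −0.43 to 0.02), and by −0.33 without rescued replicate 2 (adjusted p = 0.0322).

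Gsto1 encodes an omega-class enzyme that also reduces dehydroascorbate. It was at 13.68, 13.71 and 13.75 in WT, 13.54, 13.60 and 13.54 in mutant, and 13.71, 13.69 and 13.72 in rescued pools. The mutant pools lay below all 6 others. The differences were −0.15 for mutant minus WT (95% interval −0.27 to −0.02, adjusted p = 0.0681) and 0.14 for rescued minus mutant (95% interval 0.02 to 0.27, adjusted p = 0.127), and neither passed. Both passed with a trended and robust variance, which follows intensity (adjusted p = 0.00316 and adjusted p = 0.00959). They also passed when genes below the median of all values were left out (adjusted p = 0.0249 and adjusted p = 0.0482).

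Nqo1 encodes a quinone reductase whose induction is a standard readout of Nrf2. It was at 10.52, 10.37 and 10.62 in WT, 10.00, 9.97 and 10.20 in mutant and 10.30, 10.39 and 10.55 in rescued pools. The mutant pools lay below all others, and WT and rescued pools overlapped. Nqo1 was 1.36-fold lower in the mutant than in WT (difference −0.45, SE 0.10, adjusted p = 0.00599) and 1.28-fold higher in the rescued than in the mutant (0.35, SE 0.10, adjusted p = 0.0404). The latter call was lost without mutant replicate 1 or 2, rescued replicate 2 or 3, or WT replicate 1 (adjusted p = 0.0581 to 0.139). It was also lost with the 6 arrays of the comparison alone, array weights or a covariate of Y-linked expression (adjusted p = 0.052 to 0.0564). Rescued minus WT was −0.09 (95% interval −0.31 to 0.13).

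Corneal epithelial markers also differed between mutant and WT, beside the lower Gsta4, Gsta3, Gstm1 and Nqo1. The marker counts below stand beside 15.1% of all genes called higher and 16.5% lower in the mutant. In rescued against mutant corneas 6.46% of all genes were higher and 6.88% lower. Of 6 measured markers 5 were lower and 1, the basal keratin gene Krt14, was higher, and in rescued against mutant corneas the same 5 were higher and Krt14 was lower. The summed linear intensity of these markers was 56100 to 56700 in WT, 43000 to 44800 in mutant and 57300 to 59300 in rescued pools. Of 5 corneal endothelial markers 5 were lower in the mutant and 1 was higher in the rescued than in the mutant (summed intensity 7840 to 8130 in WT, 5380 to 6410 in mutant and 6480 to 6870 in rescued pools). Of 10 lens markers 6 were lower in the mutant than in WT and 0 of 10 were called between rescued and mutant (limma), with sums of 7480 to 10700 in WT, 2500 to 5850 in mutant and 2260 to 2960 in rescued pools. At an unadjusted p under 0.05, 2 lens markers were lower in the rescued than in the mutant pools. Of 7 keratocyte and stromal markers 3 were lower in the mutant (sums of 31100 to 39400 in WT, 26800 to 32400 in mutant and 31700 to 34400 in rescued pools). Of 9 conjunctival and goblet cell markers 7 were higher and 1 lower in the mutant (13400 to 14600, 29200 to 30800 and 20300 to 28900). The part of these cell types in the differences of those 4 genes was not tested.

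Gclm, for the modifier subunit of the ligase, had the lowest adjusted p of the 10 genes between mutant and WT. Its log2 intensities were 9.84, 9.70 and 9.65 in WT, 10.65, 10.79 and 10.76 in mutant and 10.31, 10.39 and 9.99 in rescued pools. The groups did not overlap, and the rescued pools lay between the others. Gclm was 2.01-fold higher in the mutant than in WT (difference 1.00, SE 0.11, adjusted p = 7.14e-05) and 1.42-fold lower in the rescued than in the mutant (−0.51, SE 0.11, adjusted p = 0.0119). It was 1.41-fold higher in the rescued than in WT (0.50, SE 0.11, adjusted p = 0.0132). Without rescued replicate 1 or rescued replicate 2 the last adjusted p was 0.0525 or 0.0524.

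Gclc, for the catalytic subunit, was at 10.05, 10.10 and 9.92 in WT, 10.10, 10.21 and 10.24 in mutant and 10.06, 10.29 and 10.14 in rescued pools. The mutant pools lay at or just above the highest WT pool. The mutant minus WT difference was 0.17 (95% interval −0.01 to 0.35, adjusted p = 0.158), and the rescued minus mutant difference was −0.02 (95% interval −0.20 to 0.16). The log2 difference Gclm minus Gclc on the same array was −0.21, −0.40 and −0.27 in WT, 0.55, 0.58 and 0.52 in mutant and 0.25, 0.10 and −0.15 in rescued pools. The groups did not overlap in any of the 3 pairings. The shift was 0.84 between mutant and WT, −0.48 between rescued and mutant and 0.36 between rescued and WT, with an exact two-sided permutation p of 0.1 each, also after adjustment over the 3, which is the smallest p that 3 against 3 arrays allow.

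Txnrd1 encodes cytosolic thioredoxin reductase, which recycles thioredoxin with NADPH. It was at 9.11, 9.14 and 9.14 in WT, 10.00, 9.64 and 9.96 in mutant and 9.59, 9.75 and 9.50 in rescued pools. All mutant and rescued pools lay above the WT pools, and the mutant and rescued ranges overlapped. Txnrd1 was 1.67-fold higher in the mutant than in WT (difference 0.74, SE 0.10, adjusted p = 0.000401) and 1.4-fold higher in the rescued than in WT (0.49, SE 0.10, adjusted p = 0.0126; adjusted p = 0.0527 without rescued replicate 2). Rescued minus mutant was −0.25 (95% interval −0.48 to −0.02, adjusted p = 0.142). Without mutant replicate 2, the lowest mutant pool, that difference was −0.37 (adjusted p = 0.0247).

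Srxn1 encodes sulfiredoxin, which repairs over-oxidised peroxiredoxins. It was at 9.37, 9.32 and 9.32 in WT, 9.83, 9.90 and 9.86 in mutant and 9.53, 9.81 and 9.53 in rescued pools. The mutant pools were the highest, and each rescued pool lay between the WT and the mutant pools. Srxn1 was 1.44-fold higher in the mutant than in WT (difference 0.53, SE 0.08, adjusted p = 0.000787). Rescued minus mutant was −0.24 (95% interval −0.43 to −0.06, adjusted p = 0.0831), and −0.34 without rescued replicate 2 (adjusted p = 0.011). Rescued against WT, 1.22-fold higher, was just inside the threshold (0.29, SE 0.08, adjusted p = 0.0455) and missed it on leaving out any array other than rescued replicate 3 (adjusted p = 0.053 to 0.119). The call was also lost with the 6 arrays of the comparison alone, the replicate number as a block or a covariate of Y-linked expression (adjusted p = 0.0602 to 0.121). Without rescued replicate 2, the highest rescued pool, the difference was 0.19.

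**Figure D2:**
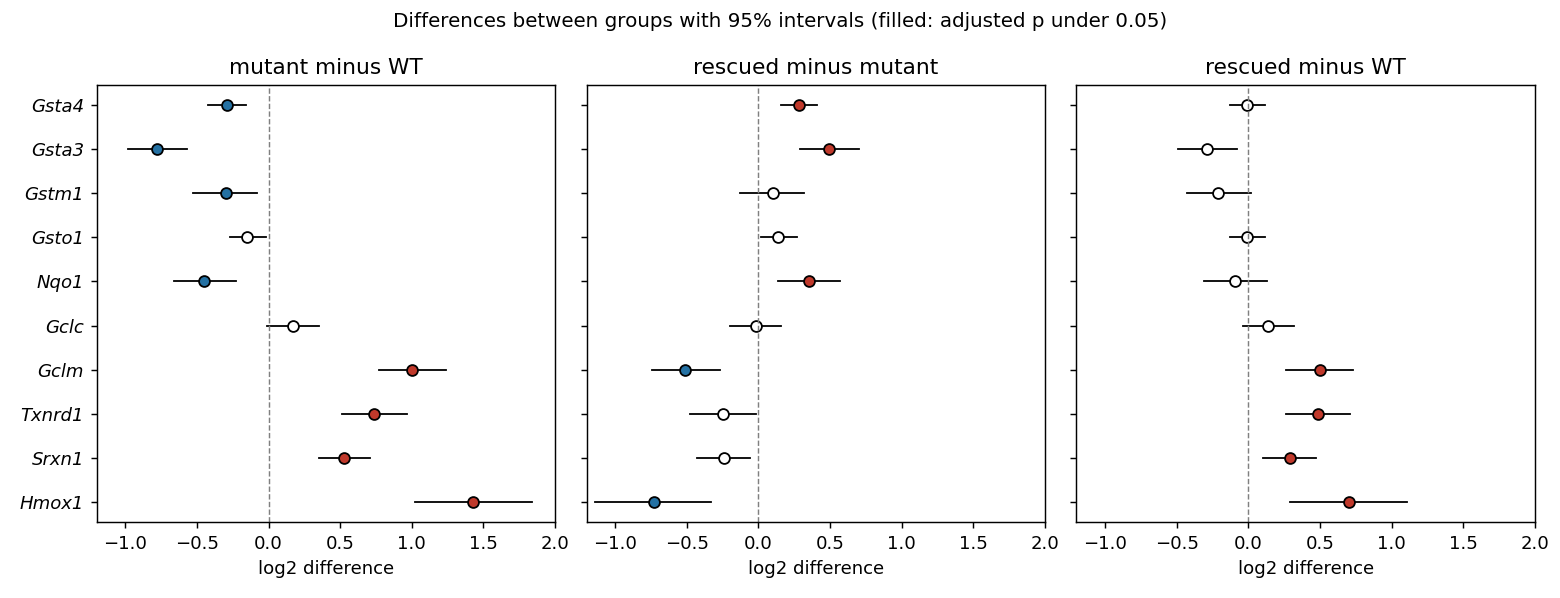
Log2 difference (horizontal axis) of each gene in the 3 comparisons with the 95% interval of the limma fit; red points passed as higher, blue points as lower, and white points did not pass. In mutant minus WT the points run from −0.78 for Gsta3 to 1.43 for Hmox1, and in rescued minus WT the 4 called points are Gclm, Txnrd1, Srxn1 and Hmox1.

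Hmox1, for the inducible oxygenase that opens heme to biliverdin, iron and carbon monoxide, had the widest range of group means. It was at 6.33, 5.70 and 6.51 in WT, 7.76, 7.41 and 7.67 in mutant and 6.86, 6.96 and 6.82 in rescued pools. The 3 groups did not overlap. The WT pools lay below 6.77, the median of the table, where signal above background was not shown, so folds against WT are lower bounds. Hmox1 was at least 2.70-fold higher in the mutant than in WT (difference 1.43, SE 0.18, adjusted p = 0.000239). Without WT replicate 2, the lowest pool, that log2 difference was 1.19 (adjusted p = 0.00013) and the rescued minus WT difference was 0.46 (adjusted p = 0.0401). It was 1.66-fold lower in the rescued than in the mutant (−0.73, SE 0.18, adjusted p = 0.027) and at least 1.62-fold higher in the rescued than in WT (0.70, SE 0.18, adjusted p = 0.0325). The rescued minus mutant call was lost without mutant replicate 1 or 3 or without any 1 of the 3 rescued replicates (adjusted p = 0.0527 to 0.095). The rescued minus WT call was lost without any 1 of the 3 rescued replicates or without WT replicate 1 (adjusted p = 0.055 to 0.106). It was also lost with the 6 arrays of the comparison alone (adjusted p = 0.055).

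Hmox1 is also expressed by macrophages and endothelium, and most of their markers were also higher in the mutant than in WT. Among 14 macrophage and monocyte markers, 12 rose and 2 fell in the mutant, 1 was higher and 1 lower in the rescued than in the mutant, and 9 were higher and 1 lower in the rescued than in WT. Their summed linear intensity was 3880 to 4040 in WT, 5230 to 7110 in mutant and 5610 to 6770 in rescued pools. Of 8 blood endothelial markers 7 were higher and 1 lower in the mutant, and 6 were lower in the rescued than in the mutant (sums of 1070 to 1160, 2720 to 3690 and 1830 to 2370 in WT, mutant and rescued pools). Of 8 neutrophil markers 4 were higher in the mutant and 4 lower in the rescued than in the mutant (468 to 514, 776 to 1120 and 559 to 605). Among all genes 15.1% were called higher and 16.5% lower in the mutant than in WT. The shares were 6.46% and 6.88% for rescued against mutant, and 6.28% and 7.43% for rescued against WT. Slc4a1, the measured red cell gene, was at 6.50 to 6.74 in all 9 pools, below the table's median. The part of these cells in the Hmox1 difference was not tested. No marker is at 0 on an array, since background adds to every probe set.

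**Figure D3:**
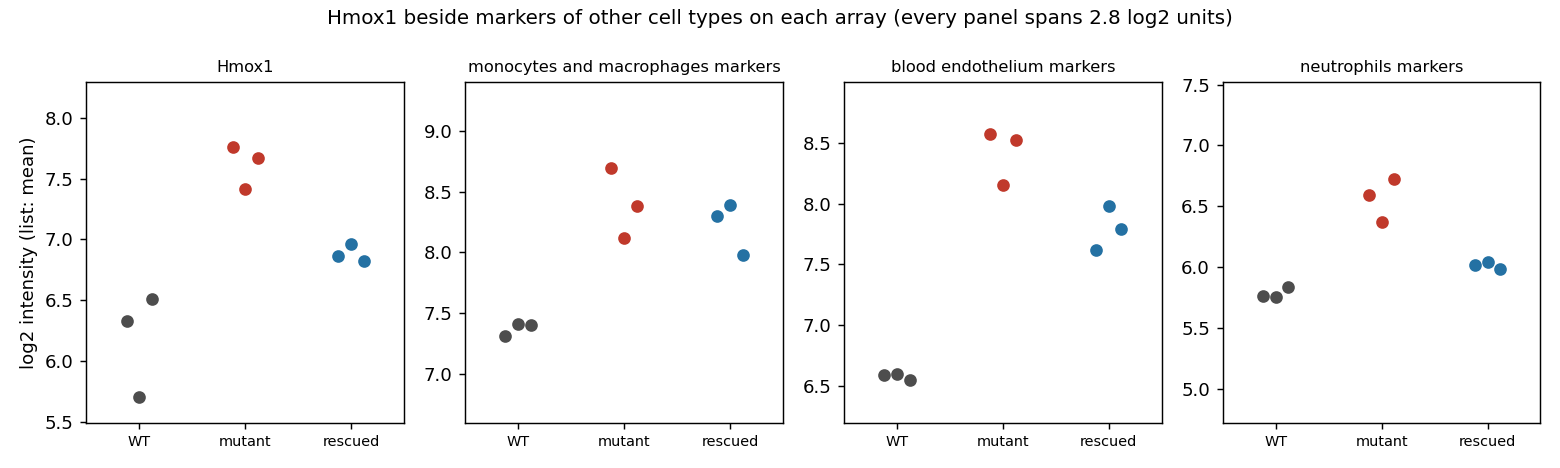
Log2 intensity of Hmox1 and the mean log2 intensity of 14 macrophage, 8 blood endothelial and 8 neutrophil markers on each of the 9 arrays; each point is a pool. The mutant and rescued ranges overlap for the macrophage markers (8.12 to 8.69 and 7.98 to 8.39). They are separate for Hmox1 and for the blood endothelial markers (8.15 to 8.57 and 7.62 to 7.98). The neutrophil marker ranges are also separate (6.37 to 6.72 and 5.98 to 6.04).

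By correlation over the 9 arrays, among 2303 other genes whose values span at least 1 log2 unit, the genes most like Hmox1 were Lmcd1 (Pearson r = 0.985), Ppp1r15a (0.98) and Pde3b (0.974). Lmcd1 encodes a LIM domain cofactor, Ppp1r15a the stress-induced phosphatase subunit GADD34 and Pde3b a cyclic nucleotide phosphodiesterase. Their group means followed the same order, for example 8.41 in WT, 8.84 in rescued and 9.36 in mutant corneas for Ppp1r15a. All group means of Pde3b (5.47 in WT, 6.11 in rescued and 6.53 in mutant) lay below the table's median, as did the WT mean of Lmcd1 (6.67). Within the gene set, Gclm and Srxn1 had r = 0.96 over the 9 arrays and Gsta4 and Gsta3 r = 0.93, while Gsta3 and Gclm had r = −0.94. These correlations include the group differences and are given as description.

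The regulators of the pathway differed by at most 0.41 between mutant and WT. Nfe2l2 was at 11.80, 11.79 and 11.77 in WT, 11.92, 11.89 and 11.89 in mutant and 11.65, 11.68 and 11.62 in rescued pools. Its 1.19-fold decrease in rescued against mutant corneas passed (log2 difference −0.25, SE 0.05, adjusted p = 0.0127), and the differences of 0.12 and −0.13 from WT did not (adjusted p = 0.129 and adjusted p = 0.138). Keap1 differed by −0.06 to 0.03 in the 3 comparisons. Of 11 measured regulators 5 were higher and 0 lower in the mutant by limma, beside 15.1% and 16.5% of all genes. At an unadjusted p under 0.05 the counts were 6 and 0. Bach1 and Bach2, for repressors that compete at the response element, were higher by 0.29 and 0.32. The small Maf genes Mafg and Mafk were higher by 0.37 each, and Dpp9, for a peptidase that binds Keap1, by 0.41. In rescued against mutant corneas Mafk fell by 0.30 (adjusted p = 0.0137), as did Nfe2l2, beside 6.88% of all genes called lower. Between rescued and WT 0 regulators were called by limma, beside 13.7% of all genes (3 higher and 1 lower at an unadjusted p under 0.05).

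Most of the other glutathione S-transferases that passed were lower in the mutant. Of 17 measured genes 7 were lower and 1 was higher in the mutant than in WT, beside 16.5% and 15.1% of all genes. Their median log2 difference was −0.20 beside −0.02 for all genes. Gstt2 was at 8.16, 8.28 and 8.39 in WT, 6.90, 6.74 and 6.44 in mutant and 7.18, 7.11 and 7.60 in rescued pools, with no overlap. It was at least 3.00-fold lower in the mutant (adjusted p = 3.35e-05), at least 1.52-fold higher in the rescued than in the mutant (adjusted p = 0.026) and 1.98-fold lower in the rescued than in WT (adjusted p = 0.00249). Gstt3 fell 2.03-fold in the mutant, was 1.54-fold higher in the rescued than in the mutant and was 1.32-fold lower in the rescued than in WT (adjusted p = 0.00401). Gstm2 and Gstk1, for a mitochondrial and peroxisomal transferase, were 1.79-fold and 1.62-fold lower in the mutant, and their rescued minus mutant differences of 0.20 and 0.29 did not pass. Against WT both were lower in the rescued corneas, 1.56-fold (adjusted p = 0.00362) and 1.33-fold (adjusted p = 0.0346). In rescued against WT corneas 6 of the 17 were lower and 0 higher (limma; the same counts at an unadjusted p under 0.05), beside 7.43% of all genes called lower.

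Genes of glutathione synthesis and turnover moved both ways. Of 15 measured, 5 were higher and 3 lower in the mutant, beside 15.1% and 16.5% of all genes. Gsr, for the reductase that regenerates glutathione, was at 10.11, 9.78 and 10.22 in WT, 10.68, 10.73 and 10.73 in mutant and 10.53, 10.58 and 10.33 in rescued pools, with all mutant and rescued pools above the WT pools. It was 1.60-fold higher in the mutant (adjusted p = 0.00112) and 1.36-fold higher in the rescued than in WT (adjusted p = 0.0269). Slc7a11, for the cystine importer, had a log2 difference of 0.63 in the mutant (adjusted p = 0.0209), with group means below the table's median (5.54 and 6.17). Cth, for the enzyme that makes cysteine from cystathionine, was 1.88-fold lower in the mutant (adjusted p = 0.000736) and 1.47-fold higher in the rescued than in the mutant (adjusted p = 0.0287). Ggt6, of the gamma-glutamyltransferase family, was 1.51-fold lower in the mutant (adjusted p = 0.00554) and 1.38-fold lower in the rescued than in WT (adjusted p = 0.0392).

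Of 12 peroxidase and glutaredoxin genes 2 were higher and 2 lower in the mutant, beside 15.1% and 16.5% of all genes, a share near that background. Between rescued and mutant 0 were called (limma; 1 higher and 2 lower at an unadjusted p under 0.05), beside 13.3% of all genes. Glrx, for cytosolic glutaredoxin, was at 8.97, 8.90 and 8.92 in WT, 10.11, 9.87 and 10.08 in mutant and 9.86, 9.87 and 9.54 in rescued pools. It was 2.12-fold higher in the mutant (adjusted p = 3.24e-05) and 1.77-fold higher in the rescued than in WT (adjusted p = 0.000844). Mitochondrial Glrx2 was 1.33-fold lower in the mutant and 1.31-fold lower in the rescued than in WT. Gpx4, for the peroxidase that reduces lipid peroxides in membranes, was 1.38-fold lower in the mutant (adjusted p = 0.000834), and Glrx3 did not pass in any comparison (log2 differences −0.08, −0.21 and −0.29).

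Among 16 thioredoxin, peroxiredoxin, superoxide dismutase and catalase genes 6 were higher and 5 lower in the mutant, beside 15.1% and 16.5% of all genes. Prdx3, for the mitochondrial peroxiredoxin, was at 11.06, 11.01 and 11.09 in WT, 11.77, 11.67 and 11.78 in mutant and 11.26, 11.25 and 11.19 in rescued pools, and the rescued pools lay between the others. It was 1.62-fold higher in the mutant (adjusted p = 2.22e-05) and 1.42-fold lower in the rescued than in the mutant (adjusted p = 0.000644). Prdx4, of the endoplasmic reticulum, was at least 1.66-fold higher and the extracellular dismutase gene Sod3 1.57-fold higher in the mutant. Sesn1, a sestrin gene, was 1.90-fold lower in the mutant (adjusted p = 1.02e-05) and 1.41-fold higher in the rescued than in the mutant (adjusted p = 0.00159), and was 1.34-fold lower in the rescued than in WT (adjusted p = 0.00391). Prdx4 was at least 1.35-fold higher in the rescued than in WT (adjusted p = 0.0191).

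Other genes commonly listed as Nrf2 targets were divided as well, with 5 of 18 higher and 6 lower in the mutant, beside 15.1% and 16.5% of all genes. Ptgr1, for a reductase of leukotrienes and alkenals, was at 12.16, 12.09 and 12.11 in WT, 10.46, 10.27 and 10.49 in mutant and 11.54, 11.30 and 11.77 in rescued pools, with no overlap. It was 3.28-fold lower in the mutant (adjusted p = 3.73e-06) and 2.19-fold higher in the rescued than in the mutant (adjusted p = 0.000226), and was 1.5-fold below WT in the rescued corneas (adjusted p = 0.00766). Ephx1, for microsomal epoxide hydrolase, was 2.00-fold lower in the mutant and 1.52-fold higher in the rescued than in the mutant, and was 1.31-fold below WT in the rescued corneas (adjusted p = 0.0403). Abcc1, for an exporter of glutathione conjugates, was at 8.45, 8.45 and 8.48 in WT, 9.74, 9.75 and 9.76 in mutant and 9.02, 9.19 and 8.91 in rescued pools. It was 2.44-fold higher in the mutant (adjusted p = 1.99e-06) and 1.63-fold lower in the rescued than in the mutant (adjusted p = 0.000303), and was 1.49-fold above WT in the rescued corneas (adjusted p = 0.00102). Akr1b8, an aldo-keto reductase gene, was at least 2.92-fold higher in the mutant and at least 1.82-fold lower in the rescued than in the mutant. Its rescued minus WT difference was 0.68 (adjusted p = 0.0275), with both means below the table's median. Over the 7 pathway lists, which were chosen with earlier results known, 28 of 101 genes were higher and 26 lower in the mutant, beside 15.1% and 16.5% of all genes.

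**Figure D4:**
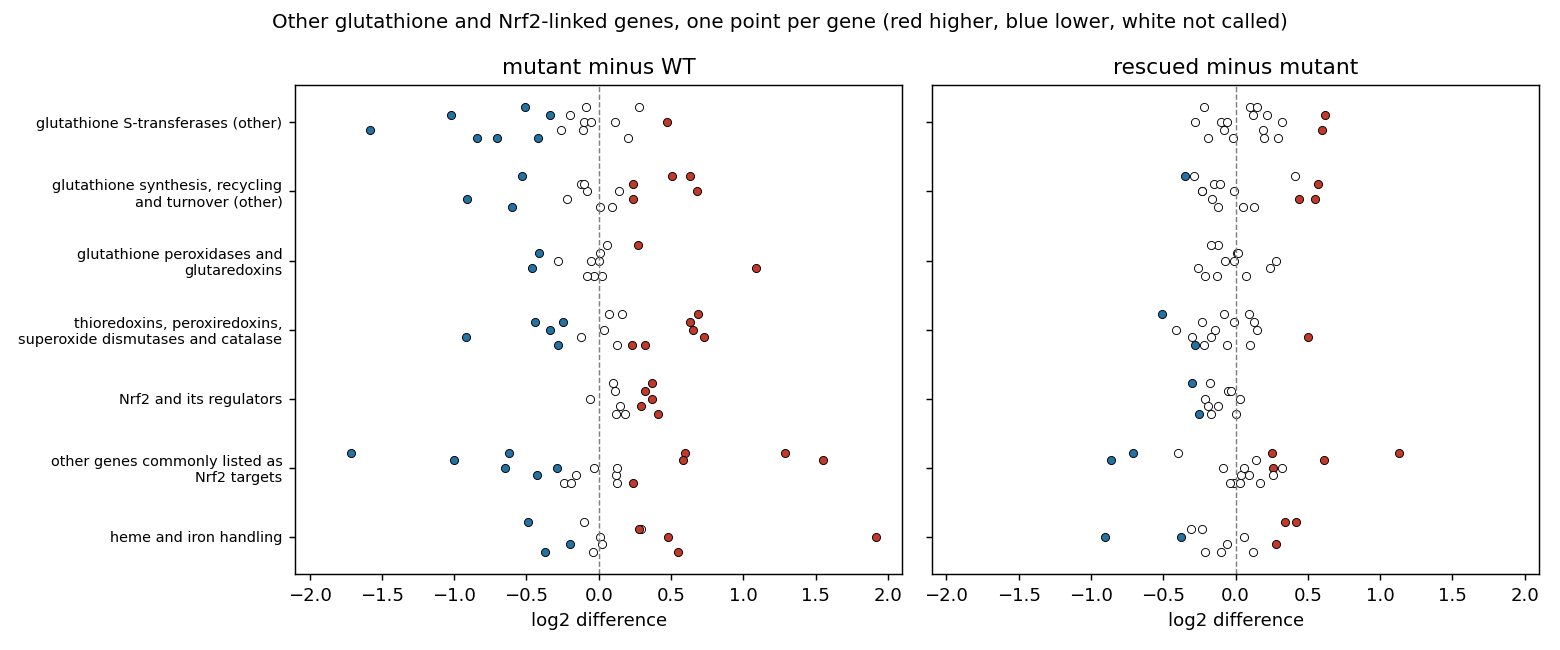
Log2 difference (horizontal axis) of 101 other pathway genes in mutant minus WT and in rescued minus mutant, by list; each point is a gene, red where it passed as higher, blue as lower, white where it did not pass. The transferases hold 7 blue points and 1 red point in mutant minus WT, and the regulators hold 5 red points and no blue one.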

How the data were processed

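Trizol was used to extract total RNA, and biotin label was added with Ambion and Affymetrix whole-transcript kits, per the labels' protocols. What the authors deposited is 1 log2 intensity for each row and array. Base 2 was inferred from the range (2.14 to 14.3), the array medians were near equal, and no source used here gives the normalisation method or genome build. Of 41345 rows, 23521 carry exactly 1 symbol in the platform annotation, 1814 carry several and 16010 are not listed. The brightest row by mean over the 9 arrays stood for each of 22180 genes.

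The 3 comparisons were fitted over all 9 arrays with limma 3.58.1 in R 4.3.3 (lmFit, contrasts.fit, eBayes). Tests are two-sided, adjusted by Benjamini-Hochberg over all genes, and called at an adjusted p under 0.05; the fit was tested on simulated data. A fold whose lower group mean lies below 6.77, the median of all values, is a lower bound, and none is given where both means do. SDs and SEs rest on 3 pools a group, which limits the precision. Ratios within arrays used exact permutation tests (scipy 1.17.1).

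The named genes are the 10 genes, up to 4 genes per pathway list with the largest absolute difference in any comparison, Nfe2l2, Keap1, Bach1, Dstn and Srf, and the 3 genes most like the gene of widest range. Aldh3a1, Krt12, Krt14 and Slc4a1 come from the marker lists. The genes, lists and tests were chosen with earlier results of these data known.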

Additional observations from a re-analysis of the deposited data

How the results depend on the processing

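The alternatives were quantile normalisation, centred array medians, leaving out genes below the median of all values, averaged rows for each gene, fits to 6 arrays, array weights, a trended and robust variance, the replicate block, a covariate of Y-linked expression, an adjusted p under 0.01, and leaving out each array. Of the counts of called genes, 49 stayed within 1.5 times of the main count and 8 were lower. At an adjusted p under 0.01, 1 of the 10 genes was called between rescued and mutant and 0 between rescued and WT. With the 6 arrays of the comparison alone, 2 were called between rescued and WT. Leaving out an array gave 7 to 8 called genes for mutant against WT and 3 to 5 for rescued against mutant, with 3 without mutant replicate 1 and without rescued replicate 3. For rescued against WT it gave 1 to 4, with 1 without rescued replicate 1, 1 without rescued replicate 2 (Gstm1, lower) and 2 without WT replicate 1. Over all genes, 2959 were called between rescued and mutant, but 1871 without mutant replicate 1, 1808 without rescued replicate 3 and 1931 without mutant replicate 3. Between rescued and WT 3042 were called, but 1812 without rescued replicate 2; at an adjusted p under 0.01 these were 1420 and 1374. With the replicate number as a block the counts were 7, 5 and 3. Same-numbered arrays of different groups had deviations correlated at −0.02 to 0.06, and differently numbered arrays at −0.1 to 0.08. No pairing by number was seen, and with 3 arrays a group these values cannot exclude one.

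Of the single-gene values, 476 kept their direction and side of the threshold, 43 lost the call, 13 gained it and 8, none of them called, changed sign. The 8 were Gstm1 in rescued minus mutant (−0.02 without rescued replicate 2), Gclc in rescued minus mutant (0 without mutant replicate 3 and 0.03 without rescued replicate 1), Gsta4 in rescued minus WT (0.01 after quantile normalisation, 0.02 without rescued replicate 2 and 0.01 without WT replicate 1) and Gsto1 in rescued minus WT (0 without rescued replicate 2 and 0.01 without WT replicate 3). Leaving out an array gave ranges of −0.02 to 0.19, −0.09 to 0.03, −0.03 to 0.02 and −0.02 to 0.01 for these. With the Y-linked covariate Gstm1 in mutant minus WT (adjusted p = 0.0907), Nqo1 in rescued minus mutant (0.052) and Srxn1 in rescued minus WT (0.121) missed the threshold. The causes were not tested.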

Other observations

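Heme and iron genes around Hmox1 also differed between the groups. Of 12 measured, 4 were higher and 3 lower in mutant than in WT corneas, beside 15.1% and 16.5% of all genes. Tfrc, for the transferrin receptor that brings iron into cells, was at 8.69, 8.18 and 8.26 in WT, 9.88, 10.48 and 10.52 in mutant and 9.90, 9.14 and 9.13 in rescued pools. It was 3.78-fold higher in the mutant (log2 difference 1.92, SE 0.24, adjusted p = 0.00022, limma), 1.87-fold lower in rescued than in mutant corneas (adjusted p = 0.0363) and 2.02-fold higher in rescued than in WT corneas (adjusted p = 0.0221). Mutant replicate 1 and rescued replicate 1 overlapped at 9.88 and 9.90.

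The first and last enzymes of heme synthesis moved in opposite directions. Alas1, for the first enzyme, was 1.4-fold higher in the mutant (adjusted p = 0.000618) and 1.3-fold lower in rescued than in mutant corneas (adjusted p = 0.00767). Fech, for ferrochelatase, was 1.4-fold lower in the mutant (adjusted p = 0.000146) and 1.26-fold higher in rescued than in mutant corneas (adjusted p = 0.00434). Cd163, for the macrophage receptor of haemoglobin complexes, had a log2 difference of 0.55 in the mutant (adjusted p = 0.025) with group means of 5.99 and 6.54, both below the table's median. Background adds to these low intensities.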
